A study of Mus musculus with 20 samples.

Results

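The 8 genes described here encode the colony-stimulating factors (CSFs) and their receptors. They were picked by name from the 52783 genes of the table, by a rule that uses no measured value, although earlier results of these data were known. The ligands are *Csf1*, *Il34*, *Csf2* and *Csf3*, and the receptors are *Csf1r*, *Csf2ra*, *Csf2rb* and *Csf3r*. All 8 are listed in the table.

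CSFs are cytokines that keep myeloid cells alive and drive their growth and maturation. CSF1 (M-CSF) and IL-34 are separate ligands of 1 receptor tyrosine kinase, CSF1R, which marks monocytes and macrophages. CSF2 (GM-CSF) binds the alpha chain CSF2RA, which signals together with the common beta chain CSF2RB, and CSF3 (G-CSF) binds CSF3R, the receptor of the neutrophil lineage. In breast tumours the CSF1 pathway is known for its part in recruiting macrophages, and CSF3 for raising neutrophil numbers.

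66cl4 and 67NR are sister cell lines of the 4T1 mouse mammary carcinoma model. 66cl4 tumours metastasise to the lung, whereas 67NR tumours do not. In all groups 1000000 cells of 1 line were injected into the mammary fat pad, and the hosts were otherwise untreated BALB/cJ females. Tumours of 10 animals, 5 per line, were dissociated and viable cells were sorted on CD45, the leukocyte surface protein encoded by *Ptprc*, into an immune (CD45+) and a non-immune (CD45-) library per animal, so 4 groups of 5 libraries were compared. The ages of the mice are not given in the labels. Each tumour type stands for 1 cell line, so a difference between the tumours is a difference between these lines and the tissue that grew around them. The CD45- gate holds the injected cells together with any stromal cells of the host, and markers of immune cells were also counted in it, as given below.

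Total counts per library ranged from 12960000 to 28080314. For 66cl4 animals 5 and 6 the titles and the recorded cell types name opposite gates, and the titles were followed. *Ptprc* was higher in the library titled CD45+ in all 10 animals, by 33.6 to 1931-fold. Results that change without these 2 animals are given beside their values. The summed level of 6 epithelial markers was 6057 to 6844 normalised counts in 66cl4 CD45- libraries and 124.5 to 390.6 in 67NR CD45- libraries. The mean of *Krt8*, a simple epithelial keratin, was 5353 and 61.6 normalised counts in these groups. That sum rested mostly on *Krt8* and *Krt18* (1149 against 58.6). *Epcam* was low in both groups and called lower in 66cl4 CD45- cells (12.1 against 32.8, log2 fold change −1.41, adjusted p = 0.0267), and *Cdh1* was at 20.8 against 32.9.

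Stretches of the reference next to the transcription starts of 3 receptor genes are shown because the transcription factor PU.1, encoded by *Spi1*, is known to drive CSF receptor genes in myeloid cells, and the receptors moved together between the gates below. The 300-base windows of RefSeq (GRCm38.p6, 250 bases before and 50 after the start) were searched on both strands for the PU.1 core letters GAGGAA, which 28.3% of all 32851 such windows hold. Of the 8 genes, 4 matched a window entry by symbol. The windows of *Csf1* and *Csf2* held no match to these letters, and those of *Csf2ra* and *Csf3r* did, as did that of *Csf2rb2*, a second beta chain gene. The 30 bases around a match follow, 5′ to 3′ on the strand of the gene, with the match in capitals.
*Csf2ra*, chr19:61228419-61228448, minus strand: ttcccaacctgcagatGAGGAAGAGGAAgc
*Csf3r*, chr4:126024561-126024590, plus strand: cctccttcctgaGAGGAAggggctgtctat
*Csf2rb2*, chr15:78305871-78305900, minus strand: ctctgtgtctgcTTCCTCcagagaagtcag
The 2 adjacent matches of *Csf2ra* start 14 and 8 bases before the transcription start, and that of *Csf3r* starts 86 bases before it. The match shown for *Csf2rb2*, 167 bases before the start, is on the opposite strand. A match describes letters and does not show that the factor binds.

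Levels of a single gene are given as normalised counts, that is, estimated counts divided by a size factor per library. Libraries are listed in the order of animals 3, 4, 5, 6 and 7 for 66cl4 tumours and animals 1, 4, 5, 6 and 7 for 67NR tumours. Calls between groups needed an adjusted p under 0.05 together with a log2 fold change beyond 1 in either direction. These libraries are bulk samples, so fewer cells of a type and less RNA per cell cannot be told apart.

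*Csf1* (ENSMUSG00000014599) was the ligand gene with the highest level in every group, and it was higher in 66cl4 tumours in both gates. In CD45- cells its normalised counts were 11408, 9979, 10757, 10585 and 12078 in 66cl4 tumours and 3021, 3317, 3672, 3512 and 3502 in 67NR tumours. The groups did not overlap, and the 66cl4 libraries varied little (10960 ± 805, SD, n = 5) as did the 67NR libraries (3405 ± 249, SD, n = 5). The log2 fold change was 1.72 (SE 0.0876, adjusted p = 7.81e-10). In CD45+ cells the values were 2587, 1787, 3225, 2034 and 2348 against 1420, 1573, 1141, 784.9 and 584.3. These groups also did not overlap, but the distance between the lowest 66cl4 library (1787) and the highest 67NR library (1573) was small. The log2 fold change was 1.12 (SE 0.273, adjusted p = 0.0133). This call rested on single libraries: the log2 fold change was 1.02 (adjusted p = 0.0584) without 66cl4 animals 5 and 6, 0.9999 without the CD45+ library of 66cl4 animal 5 and 0.95 without that of 67NR animal 7.

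*Il34* (ENSMUSG00000031750), the gene of the other CSF1R ligand, differed in the opposite direction and was lower in 66cl4 tumours. In CD45- cells it had 88.9, 70.5, 62.4, 97.7 and 104.8 normalised counts in 66cl4 tumours and 134.3, 158.3, 360.0, 181.3 and 274.1 in 67NR tumours. The groups did not overlap, with a log2 fold change of −1.36 (SE 0.264, adjusted p = 0.000495). In CD45+ cells it had 2.78, 11.5, 2.89, 3.16 and 7.61 against 43.7, 68.1, 66.1, 15.6 and 26.7 normalised counts. All 5 libraries of 66cl4 CD45+ cells held at most 12 counts of *Il34*, and the log2 fold change was −2.91 (SE 0.529, adjusted p = 0.00262). The summed level of 7 fibroblast markers in CD45+ libraries was 201.7 to 1525 for 66cl4 against 625.5 to 2450 for 67NR tumours, with *Lum* and *Dcn* called lower in 66cl4 tumours, *Col1a1* at 117.3 against 226.1 and *Col1a2* at 103.2 against 50.9. Their part in the *Il34* difference was not tested.

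Since both ligands share a receptor, their levels were set side by side per transcript length, as TPM, which scales counts to transcript length and library depth. The ratio of *Csf1* to *Il34* TPM was 46.6 to 74.1 in 66cl4 CD45- libraries and 4.39 to 9.68 in 67NR CD45- libraries. In CD45+ libraries it was 67.0 to 480.0 in 66cl4 against 7.43 to 21.7 in 67NR tumours. *Csf1* therefore exceeded *Il34* in every library, and the ratio was higher in all 66cl4 than in all 67NR libraries of the same gate.

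**Figure D1:**
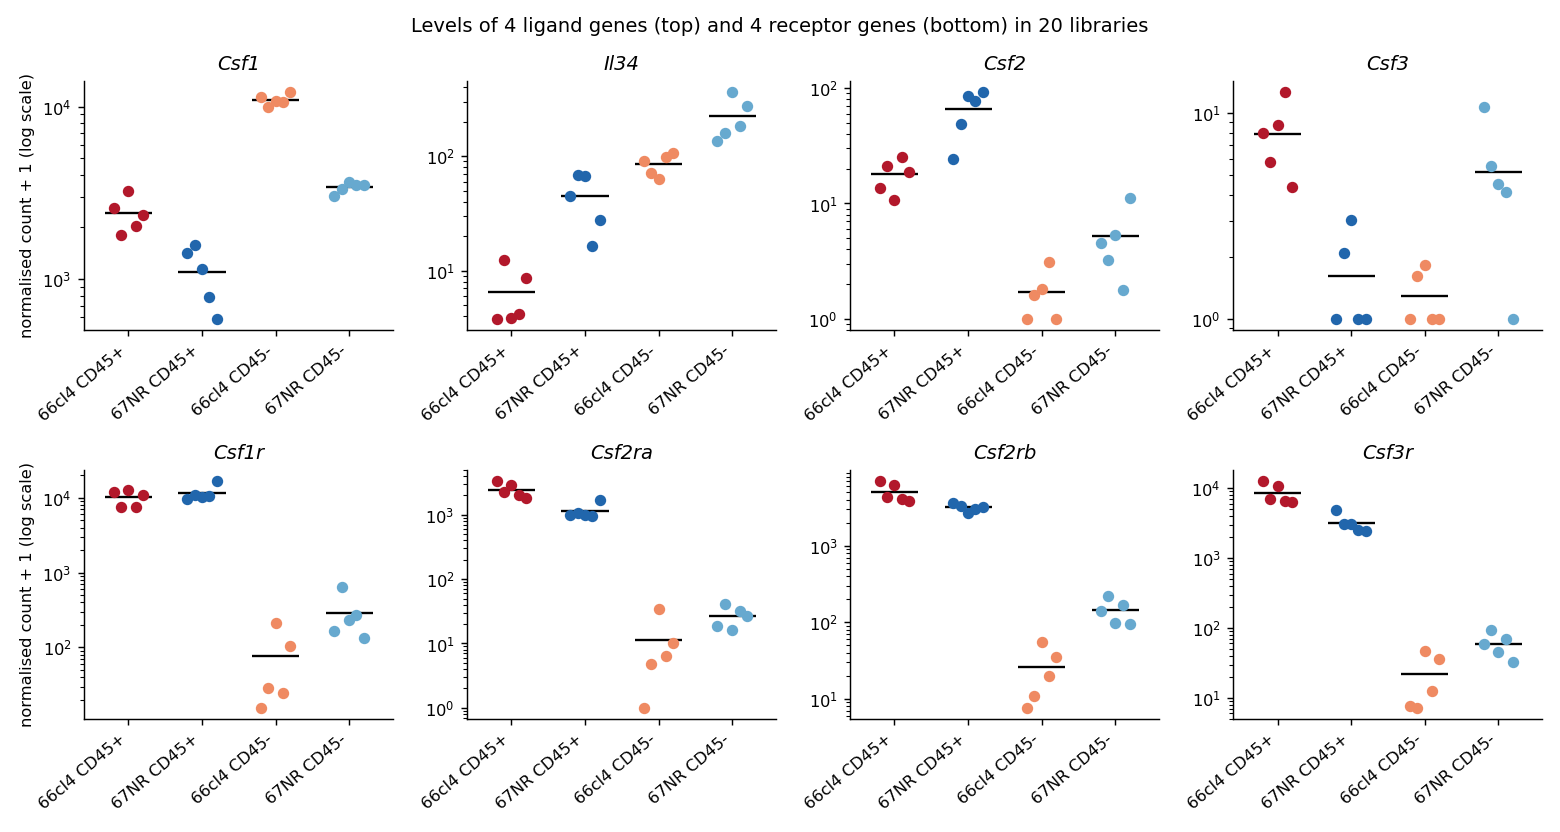
Normalised counts plus 1 (log axis) of the 4 ligand genes in the top row and the 4 receptor genes in the bottom row. Each point is a library, 5 per group, and each line is the group mean. *Csf1* and *Il34* are highest in CD45- groups, the 4 receptor genes are highest in CD45+ groups, and *Csf3* stays at or below 11.6 normalised counts everywhere.

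*Csf2* (ENSMUSG00000018916) was a low-level gene of the CD45+ cells and was lower there in 66cl4 tumours. The CD45+ libraries had 12.5, 20.1, 9.64, 24.2 and 17.7 normalised counts in 66cl4 and 23.4, 47.3, 84.4, 76.7 and 90.5 in 67NR tumours. The groups overlapped only at 66cl4 animal 6 and 67NR animal 1, and the log2 fold change was −1.90 (SE 0.378, adjusted p = 0.00435). In CD45- cells *Csf2* was below the filter on low counts, with 0, 0.623, 0.832, 2.12 and 0 against 3.51, 2.25, 4.39, 0.781 and 10.2 normalised counts. The summed counts of these 5 and 5 libraries were 4 and 23, which after scaling is a 5.39-fold difference (95% counting interval 1.84 to 21.4), and the exact permutation test of the means gave p = 0.0238 (two-sided, smallest possible 0.00794).

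*Csf2* is known to be made by lymphocytes and mast cells among others, and markers of such cells also differed between the CD45+ groups. All 4 tested NK cell markers were lower in 66cl4 tumours (*Ncr1* at 755.0 against 4411 and *Klrb1c* at 122.8 against 829.4 normalised counts), with a summed level of 726.0 to 4090 normalised counts in 66cl4 libraries against 4338 to 50090 in 67NR libraries. In the order of the libraries above, these sums were 726.0, 1696, 1954, 4090 and 2481, and 4338, 9429, 27580, 39740 and 50090. The 67NR library with the lowest *Csf2* level, that of animal 1, was also the one with the lowest NK cell marker sum. It was not lowest in NK cell markers alone. Its mast cell (19140), T cell (1381), B cell (362.1) and dendritic cell (3390) sums were the lowest of its group too, and its neutrophil sum (47450) was the highest. All 5 mast cell markers were lower too, with sums of 1144 to 3716 against 19140 to 26720, *Cpa3* at 908.0 against 7166 and *Mcpt4* at 410.3 against 6487. T cell marker sums overlapped, at 1289 to 5524 and 1381 to 4801, with *Cd3e* at 703.2 against 583.5 and *Cd3d* at 511.8 against 319.5. The part of these cells in the *Csf2* difference was not tested.

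*Csf3* (ENSMUSG00000038067) was at the limit of detection. Its counts were 5, 5, 8, 11 and 4 in 66cl4 CD45+ libraries and 0, 1, 2, 0 and 0 in 67NR CD45+ libraries, where 3 counts correspond to 3.05 to 4.68 normalised counts. The CD45+ groups did not overlap, with 33 counts against 3 in sum, a 9.67-fold difference (95% counting interval 3.03 to 49.3) and an exact permutation p of 0.00794, the smallest this design allows. The gene was too low for the main test, and without the filter the log2 fold change was 3.10 (SE 0.835, adjusted p = 0.0170 over 29349 genes).

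In CD45- cells the order of *Csf3* was turned round. Its counts were 0, 1, 1, 0 and 0 in 66cl4 libraries and 11, 6, 4, 4 and 0 in 67NR libraries. The scaled difference was 11.7-fold (95% counting interval 2.92 to 102.0), and the groups overlapped because 67NR animal 7 had no count (exact permutation p = 0.0476). Without the filter the log2 fold change was −3.15 (SE 0.953, adjusted p = 0.00828). Intervals of counts cover counting error only.

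Measured per length, *Csf1* was far above the other ligands in all groups, with a mean of 252.7 TPM (66cl4) and 75.0 TPM (67NR) in the non-immune gate, and of 54.8 TPM (66cl4) and 24.0 TPM (67NR) in the immune gate. Second in both CD45- groups came *Il34*, at 3.53 to 5.83 TPM in 66cl4 and 6.24 to 16.6 in 67NR tumours, and *Csf2* and *Csf3* overlapped below it. In 66cl4 CD45+ cells *Csf2* came second, at 1.11 to 2.60 TPM, while *Il34* (0.137 to 0.660) and *Csf3* (0.251 to 0.640) overlapped. In 67NR CD45+ cells *Csf2* (2.28 to 11.5) overlapped with *Il34* (0.883 to 3.54), and *Csf3* was lowest at 0 to 0.131 TPM.

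*Csf1r* (ENSMUSG00000024621), the receptor gene of macrophages, did not differ detectably between the CD45+ cells of the tumours. Its normalised counts were 11918, 7533, 12806, 7550 and 11061 in 66cl4 and 9683, 10999, 10292, 10599 and 16768 in 67NR tumours. The ranges overlapped widely, and the log2 fold change was −0.18 (SE 0.190, adjusted p = 0.546). The summed level of 8 macrophage markers was 44520 to 68360 in 66cl4 and 70510 to 105900 in 67NR CD45+ libraries, with 1 marker, *Adgre1* (F4/80), called lower in 66cl4 tumours (log2 fold change −1.11) and *Cd68* at 8166 against 6568 normalised counts.

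*Csf3r* (ENSMUSG00000028859) was higher in 66cl4 CD45+ cells. It had 12573, 6866, 10773, 6561 and 6232 normalised counts in 66cl4 and 4923, 3070, 3038, 2528 and 2419 in 67NR tumours. Every 66cl4 library exceeded every 67NR library, and the log2 fold change was 1.43 (SE 0.261, adjusted p = 0.00277). Of 7 neutrophil markers tested, 4 (*Retnlg*, *S100a8*, *Cxcr2* and *S100a9*) were called higher in 66cl4 tumours, with *S100a8* at 24650 against 5861 and *S100a9* at 47090 against 11700 normalised counts. *Mmp8* (1106 against 520.4), *Ly6g* (68.7 against 25.1) and *Ltf* (39.9 against 41.3) were not called, and *Camp* was below the filter (3.68 against 10.6). The summed level over 8 markers was 38030 to 114600 in 66cl4 and 4784 to 47450 in 67NR libraries. 67NR animal 1 was highest of its group in both *Csf3r* and the neutrophil sum. The part of neutrophil content in the *Csf3r* difference was not tested.

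The 2 chains of the CSF2 receptor were both higher in 66cl4 CD45+ cells, but 1 of them passed the fold threshold. *Csf2ra* (ENSMUSG00000059326), the ligand-binding chain, had 3350, 2243, 2926, 2005 and 1842 normalised counts in 66cl4 and 989.6, 1061, 998.0, 973.0 and 1713 in 67NR tumours. The groups did not overlap, although 67NR animal 7 came close to 66cl4 animal 7. The log2 fold change was 1.13 (SE 0.196, adjusted p = 0.00198), and 0.97 (adjusted p = 0.00667), under the fold threshold, without the CD45+ library of 66cl4 animal 3. *Csf2rb* (ENSMUSG00000071713), the signalling chain, had 7018, 4355, 6299, 4053 and 3824 against 3663, 3333, 2708, 3047 and 3205. These groups did not overlap either, with a log2 fold change of 0.69 (SE 0.181, adjusted p = 0.0182), which is below the threshold of 1.

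*Csf2rb* has a near copy in mouse, *Csf2rb2*, whose product pairs with the IL-3 receptor. Of the 31-base words in its transcripts, 18.8% also occur in those of *Csf2rb2*, and estimated counts of both were not whole in 20 of 20 libraries, so reads were divided between the copies. *Csf2rb2* had a log2 fold change of 0.23 (adjusted p = 0.452) in CD45+ cells. With the counts of both copies summed, a setting chosen after the values were seen, it was 0.55 (adjusted p = 0.0515). *Csf2rb* took 69.8 to 74.7% of the summed TPM of the pair in 66cl4 and 63.0 to 68.6% in 67NR CD45+ libraries. For *Csf3r*, 19.9% of its words occur in the pseudogene *AC105061.2*, which held 0.744 to 1.65% of the *Csf3r* count in CD45+ libraries. Adding them left its log2 fold change at 1.43 (adjusted p = 0.00269).

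Of the 7 genes tested in CD45+ cells, 3 were called higher in 66cl4 tumours (*Csf3r*, *Csf2ra* and *Csf1*) and 2 lower (*Il34* and *Csf2*). Of all 14676 genes tested, 5.01% were called higher and 6.82% lower. The median log2 fold change of the 7 was 0.69, beside 0.0098 over all genes tested.

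**Figure D2:**
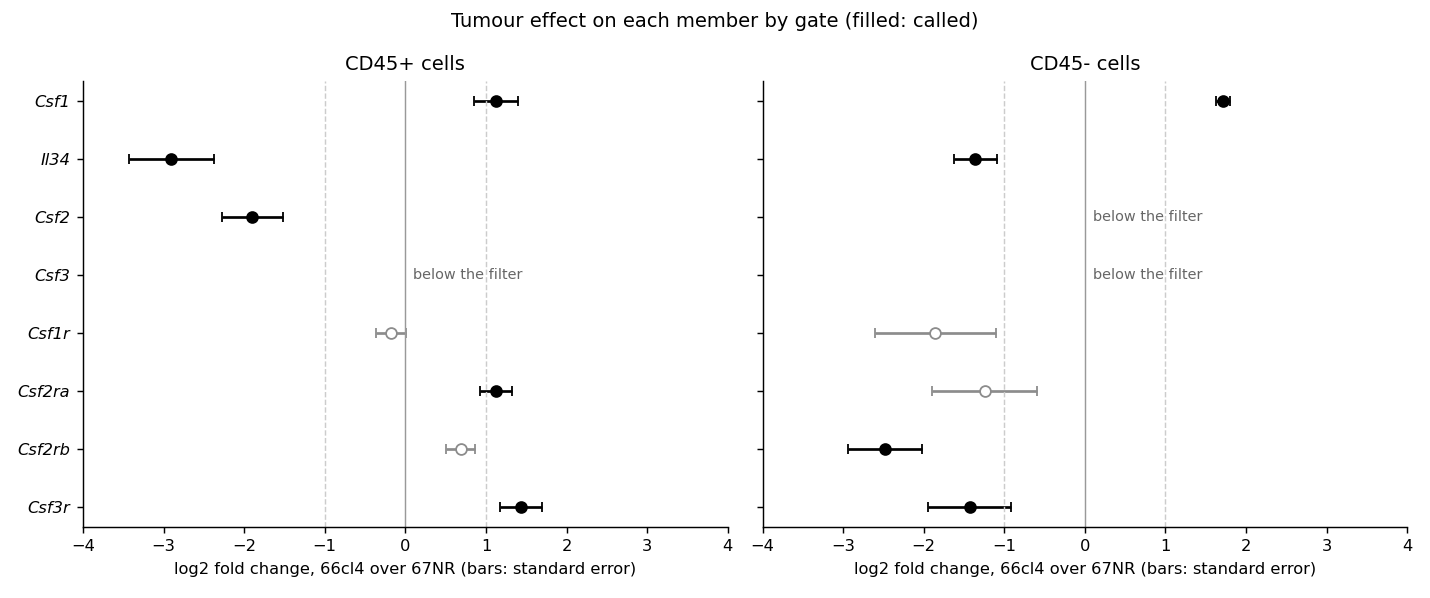
Log2 fold change of 66cl4 over 67NR tumours in CD45+ cells (left) and CD45- cells (right), with standard errors as bars. Filled points passed both thresholds, open points did not, and dashed lines mark an absolute log2 fold change of 1. *Csf1* lies right of 0 and *Il34* left of 0 in both gates, while *Csf3r*, *Csf2ra* and *Csf2rb* lie right of 0 in CD45+ and left of 0 in CD45- cells.

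Per length, the order of the receptor genes in CD45+ cells differed between the tumours. In 66cl4 tumours *Csf3r* (147.3 to 360.0 TPM) and *Csf1r* (125.5 to 252.7 TPM) overlapped, and *Csf2ra* (68.8 to 146.7) and *Csf2rb* (64.7 to 142.8) overlapped with each other. In 67NR tumours *Csf1r* (160.2 to 362.8 TPM) stood above *Csf3r* (70.7 to 110.0), and *Csf2rb* (50.4 to 66.5) and *Csf2ra* (33.8 to 76.5) lay at the lower end without separating. Within a library, the ratio of *Csf3r* to *Csf1r* TPM was 0.761 to 1.42 in 66cl4 against 0.195 to 0.687 in 67NR tumours. The ratio of *Csf2ra* to *Csf1r* was 0.344 to 0.615 in 66cl4 against 0.190 to 0.211 in 67NR tumours. Both ratios separated the tumours without overlap, and the second varied little among the 67NR libraries.

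**Figure D3:**
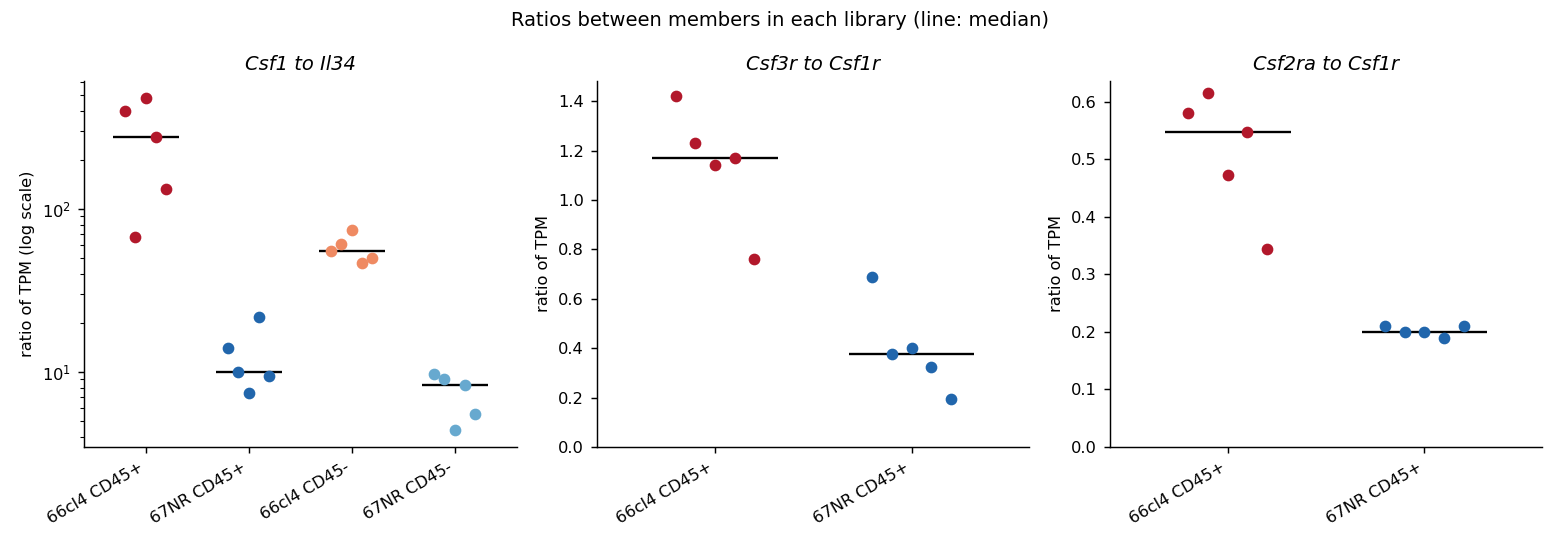
Ratio of *Csf1* to *Il34* TPM in all 4 groups (left, log axis), and of *Csf3r* to *Csf1r* (middle) and *Csf2ra* to *Csf1r* (right) in CD45+ cells. Points are libraries and lines are medians. In each panel the 66cl4 libraries lie above the 67NR libraries of the same gate.

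In CD45- cells the receptor genes were low, and *Csf2rb* and *Csf3r* were called lower in 66cl4 tumours, whereas *Csf1r* and *Csf2ra* were not called. *Csf2rb* had 6.64, 9.98, 54.1, 19.1 and 33.9 normalised counts in 66cl4 and 137.8, 216.8, 98.3, 167.2 and 95.1 in 67NR tumours. The groups did not overlap, with a log2 fold change of −2.48 (SE 0.462, adjusted p = 0.000496), and *Csf2rb2* behaved alike at −2.46 (adjusted p = 2.92e-05). *Csf3r* had 6.64, 6.23, 46.6, 11.7 and 34.9 against 57.9, 93.0, 43.9, 68.0 and 31.7. Its groups overlapped at animals 5 and 7 of both tumours, with a log2 fold change of −1.43 (SE 0.516, adjusted p = 0.0267). That call was lost on leaving out any of 6 CD45- libraries, those of 66cl4 animals 3, 4 and 6 and of 67NR animals 1, 4 and 6 (log2 fold change −1.16 to −1.43, adjusted p = 0.0512 to 0.0665), and also without the filter (adjusted p = 0.0792).

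*Csf1r* had 14.6, 28.1, 213.9, 23.4 and 103.8 normalised counts in 66cl4 and 165.0, 639.2, 230.1, 271.9 and 131.9 in 67NR CD45- libraries. The CD45- library of 66cl4 animal 5 fell inside the 67NR range, and the log2 fold change was −1.85 (SE 0.756, adjusted p = 0.0544). Without that library it was −2.70 (adjusted p = 0.00681), and without 66cl4 animals 5 and 6 it was −2.50 (adjusted p = 0.0220). *Csf2ra* had 0, 3.74, 33.3, 5.31 and 8.98 against 17.6, 40.5, 14.9, 30.5 and 25.6. Its log2 fold change was −1.24 (SE 0.649, adjusted p = 0.109), and −2.41 (adjusted p = 0.00145) without the CD45- library of 66cl4 animal 5 or −2.46 (adjusted p = 0.00535) without animals 5 and 6. The library of animal 5 was thus the highest of its group for all 4 receptor genes.

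Markers of macrophages and mast cells were also lower in 66cl4 CD45- libraries. The macrophage marker sums were 147.3, 247.5, 1732, 313.4 and 773.6 normalised counts in 66cl4 and 1644, 3956, 1408, 1712 and 1169 in 67NR tumours. The 66cl4 library of animal 5 was the highest of its group here as well, and the highest 67NR library for *Csf1r* and for this sum was that of animal 4. Of the macrophage markers, 4 of 7 tested were called lower in 66cl4 tumours, beside 18.9% of all genes tested. The neutrophil sums were 146.0 to 467.0 against 620.8 to 918.7, with 1 of 5 tested markers, *Cxcr2*, called lower. *Cxcr2* was the largest part of these sums (mean 125.3 against 496.4). *S100a8* (49.1 against 89.5) and *S100a9* (81.8 against 179.3) were not called. Mast cell sums were 0 to 52.9 in 66cl4 CD45- libraries, with 5 of 5 markers called lower, beside 18.9% of all genes tested. In 67NR CD45- libraries they were 446.6, 515.4, 4975, 6302 and 18280. The highest of these sums was that of animal 7, whose library was the lowest of its group for *Csf1r* (131.9), *Csf2rb* (95.1) and *Csf3r* (31.7). The part of immune cells in the CD45- receptor differences was not tested.

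**Figure D4:**
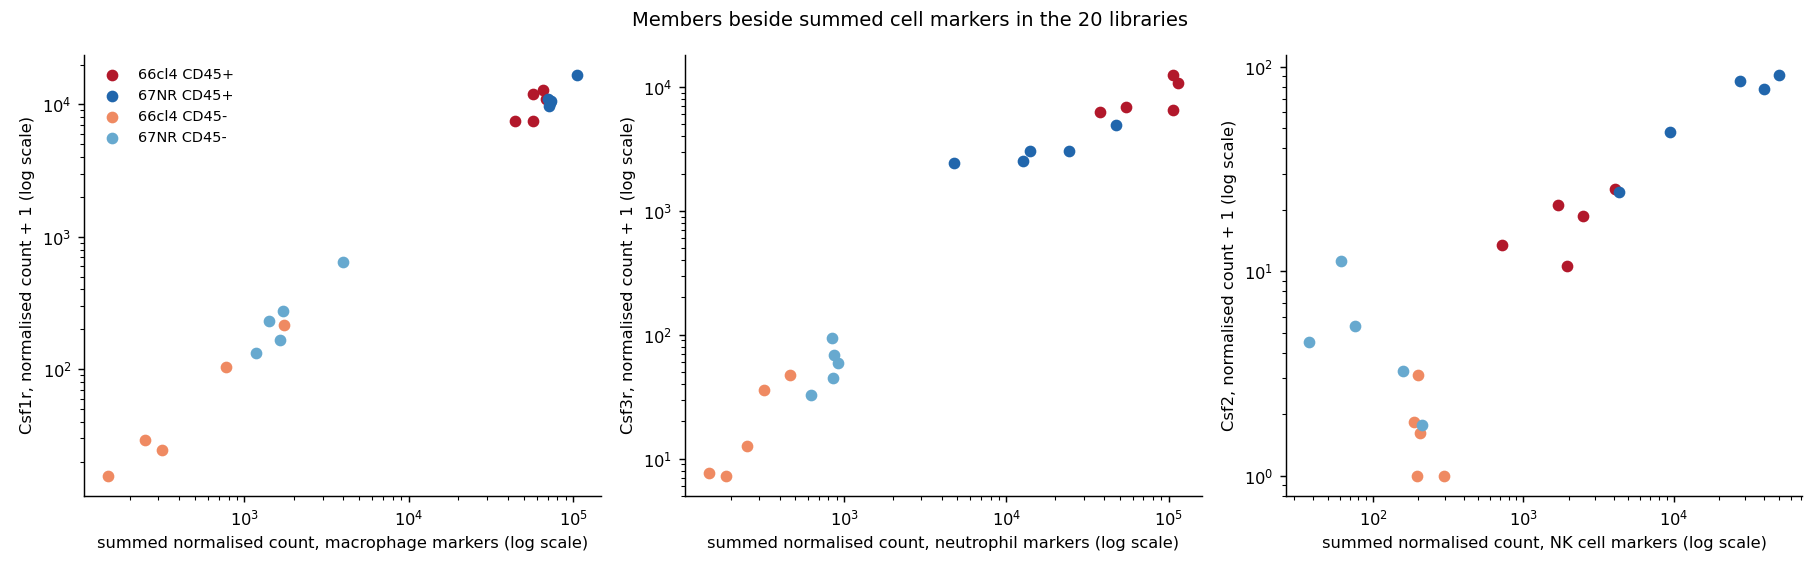
*Csf1r* against the summed macrophage markers, *Csf3r* against the summed neutrophil markers and *Csf2* against the summed NK cell markers, in normalised counts on log axes with 1 added to the gene. Each point is 1 of 20 libraries. Among the CD45- libraries *Csf1r* is lowest (14.6) and highest (639.2) where the macrophage marker sum is lowest (147.3) and highest (3956), and the 67NR CD45+ libraries reach 90.5 normalised counts of *Csf2* at the upper end of the NK cell marker sum.

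Of the 6 genes tested in CD45- cells, *Csf1* was called higher in 66cl4 tumours and *Csf2rb*, *Csf3r* and *Il34* lower. Of 14844 genes tested, 13.2% were called higher and 18.9% lower. The median log2 fold change of the 6 was −1.39, beside −0.0091 over all genes.

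The gates of the same animals were then compared, which asks where in a tumour each gene was transcribed. The main tests treated the 2 libraries of an animal as independent, and calls that changed with the animal as a block are given below. The 4 receptor genes were higher in CD45+ cells of both tumours. In 66cl4 tumours the log2 fold changes were 8.61 for *Csf3r*, 7.79 for *Csf2ra*, 7.63 for *Csf2rb* and 6.999 for *Csf1r* (SE 0.477 to 0.709, adjusted p at most 2.66e-06). In 67NR tumours they were 5.75, 5.45, 4.48 and 5.34 in the same order (SE 0.232 to 0.434, adjusted p at most 9.51e-07). Without the CD45- library of 66cl4 animal 5, the values of *Csf2ra* and *Csf1r* in 66cl4 tumours were 9.01 and 7.89, and without animals 5 and 6 they were 9.04 and 7.65.

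The mean CD45- level of the receptor genes in 66cl4 tumours was 0.754% of the CD45+ level for *Csf1r*, 0.415% for *Csf2ra*, 0.484% for *Csf2rb* and 0.247% for *Csf3r*. That of *Ptprc* was 0.385%, and those of the 8 macrophage markers were 0.496 to 1.31%. In 67NR tumours the shares were 2.46% for *Csf1r*, 2.25% for *Csf2ra*, 4.48% for *Csf2rb* and 1.84% for *Csf3r*, beside 1.22% for *Ptprc* and 1.81 to 4.58% for the macrophage markers. The share of *Csf1r* lay inside the range of the macrophage markers in both tumours. Without the CD45- library of 66cl4 animal 5 the shares in 66cl4 tumours were 0.417% for *Csf1r*, 0.182% for *Csf2ra*, 0.341% for *Csf2rb* and 0.173% for *Csf3r*, and those of the macrophage markers were 0.295 to 0.929%.

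*Csf1* and *Il34* were instead higher in CD45- cells of all 10 animals. The ratio of the CD45- to the CD45+ library of an animal was 3.34 to 5.58 for *Csf1* in 66cl4 and 2.11 to 5.99 in 67NR tumours. For *Il34* it was 6.14 to 31.97 in 66cl4 against 2.32 to 11.6 in 67NR tumours. The log2 fold changes of CD45+ over CD45- cells were −2.22 (SE 0.153, adjusted p = 5.66e-08) and −1.62 (SE 0.250, adjusted p = 0.000148) for *Csf1*, and −3.87 (SE 0.361, adjusted p = 8.11e-07) and −2.32 (SE 0.416, adjusted p = 0.000439) for *Il34*, in 66cl4 and 67NR tumours.

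*Csf1* was also present in CD45+ cells, at 21.9% of its mean CD45- level in 66cl4 and 32.3% in 67NR tumours. Those of the 7 fibroblast markers, which belong to the other gate, were 4.03 to 8.81% and 5.41 to 15.4%. In 67NR CD45+ libraries the fibroblast marker sums (2084, 2450, 1121, 796.9 and 625.5) ranked the animals as *Csf1* did. In 66cl4 CD45+ libraries (201.7, 679.4, 514.9, 639.7 and 1525) they did not. The part of CD45- cells in the *Csf1* level of CD45+ libraries, and in its tumour difference there, was not tested. The share of *Il34* was 6.58% in 66cl4 tumours, inside the range of the fibroblast markers, and 19.9% in 67NR tumours, above it.

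*Csf2* was a gene of the CD45+ gate in both tumours. In 67NR tumours its log2 fold change was 3.95 (SE 0.536, adjusted p = 5.31e-05). In 66cl4 tumours it was below the filter, and the summed counts were 84 in CD45+ and 4 in CD45- cells, a scaled 23.4-fold difference (95% counting interval 8.81 to 87.9, exact permutation p = 0.00794). *Csf3* was higher in the CD45+ cells of 66cl4 tumours, with 33 counts against 2 and a scaled 18.4-fold difference (95% counting interval 4.70 to 158.0, exact permutation p = 0.00794). In 67NR tumours its 25 counts in CD45- against 3 in CD45+ cells gave a 6.16-fold difference the other way (95% counting interval 1.88 to 31.9), which the exact permutation test did not separate (p = 0.0556). These permutation tests treated the libraries of both gates as independent and did not use their pairing by animal, so their p-values do not measure the paired difference.

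Of the 6 genes tested in 66cl4 tumours, 4 were called higher and 2 lower in CD45+ cells, where 23.9% and 20.5% of all 14916 genes were. Of the 7 tested in 67NR tumours, 5 were called higher and 2 lower, where 20.2% and 19.6% of all 15063 genes were.

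**Figure D5:**
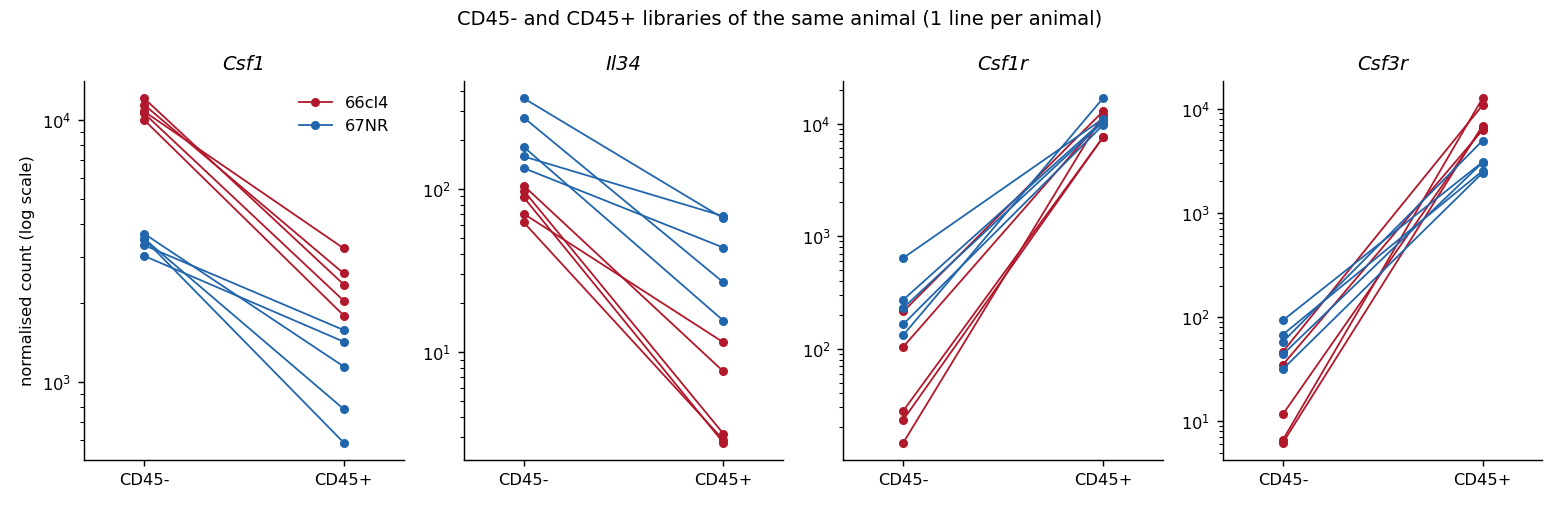
Normalised counts (log axis) of *Csf1*, *Il34*, *Csf1r* and *Csf3r* in the CD45- and CD45+ library of the same animal, joined by a line, with 66cl4 tumours in red and 67NR tumours in blue. *Csf1* and *Il34* fall and both receptors rise from CD45- to CD45+ in all 10 animals.

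An interaction term over the 20 libraries tested whether the tumour effect depended on the gate. It did for *Csf2rb* (3.17 on the log2 scale, SE 0.482, adjusted p = 3.33e-05), *Csf3r* (2.88, SE 0.569, adjusted p = 0.00048) and *Csf2ra* (2.35, SE 0.617, adjusted p = 0.00478), whose effect was more positive in CD45+ cells. The value of *Csf2ra* was 3.45 without the CD45- library of 66cl4 animal 5, and without 66cl4 animals 5 and 6 those of *Csf2ra* and *Csf2rb* were 3.68 and 3.80. For *Il34* the effect was more negative in CD45+ cells (−1.53, SE 0.579, adjusted p = 0.0386). For *Csf1* (−0.58, SE 0.284, adjusted p = 0.107), *Csf1r* (1.68, SE 0.732, adjusted p = 0.0697) and *Csf2* (0.36, SE 0.678, adjusted p = 0.696) no difference was called. Of all 16453 genes tested, 21.9% had a more positive and 21.2% a more negative effect in CD45+ cells.

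Several of these values depended on single libraries. That of *Il34* was lost with the animal as a replicate block (−1.52, adjusted p = 0.0506), without the filter (−1.59, adjusted p = 0.0513) and without 66cl4 animals 5 and 6 (−1.14, adjusted p = 0.212). It was also lost (−1.32 to −1.51, adjusted p = 0.0521 to 0.0782) on leaving out the CD45- library of 66cl4 animal 6 or 7 or of 67NR animal 1 or 6, or the CD45+ library of 66cl4 animal 3, 5 or 6 or of 67NR animal 4 or 5. That of *Csf1r* was called with the animal as a replicate block (1.99, adjusted p = 0.0301), without animals 5 and 6 (2.41, adjusted p = 0.0188) and on leaving out only the CD45- library of 66cl4 animal 5 (2.43, adjusted p = 0.00461), and was 1.06 (adjusted p = 0.226) without that of 67NR animal 4. That of *Csf1* was called without the CD45+ library of 66cl4 animal 5 (−0.82, adjusted p = 0.0326) or of 67NR animal 7 (−0.74, adjusted p = 0.0152). That of *Csf2* turned to −0.30 (adjusted p = 0.916) without the CD45- library of 67NR animal 7.

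CSF receptors signal through kinases, STAT factors and their inhibitors. Of 22 such genes, 1 was called in CD45+ cells, *Fgr*, a Src-family kinase of myeloid cells, which was higher in 66cl4 tumours (3002 against 1313 normalised counts, log2 fold change 1.21, adjusted p = 0.000843). Of all 14676 genes tested there, 5.01% were called higher and 6.82% lower. The median of the 22 was 0.22, beside 0.0098 over all genes tested. In CD45- cells 1 was called higher and 7 lower, with a median of −0.53, where 13.2% and 18.9% of all genes tested were called higher and lower. *Ptprc*, the leukocyte gene of the gate, was itself lower in 66cl4 CD45- cells (75.2 against 266.7 normalised counts, log2 fold change −1.79, adjusted p = 0.0361), and its part in these values was not tested. The gene higher in 66cl4 tumours was *Socs3*, a feedback inhibitor of STAT3 signalling (2539 against 792.0, log2 fold change 1.71, adjusted p = 9.04e-05). Those lower were led by *Socs2*, a feedback inhibitor induced by STAT5 (60.4 against 1261, log2 fold change −4.35, adjusted p = 7.45e-11), *Cish*, another STAT5 target (6.92 against 41.1, −2.50), *Pik3cd* (9.88 against 51.8, −2.36) and *Pik3cg* (13.3 against 60.5, −2.14), the leukocyte PI3-kinases.

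Between the gates, 16 of the 22 signalling genes were higher in CD45+ cells of 66cl4 and 13 in those of 67NR tumours, where 23.9% and 20.2% of all genes tested were. The kinase *Fgr* was the highest in both, with log2 fold changes of 8.48 and 6.15, and *Pik3cg* was at 7.53 and 5.27. *Socs2* was called in opposite directions, higher in CD45+ cells of 66cl4 (2.35) and lower in those of 67NR tumours (−1.02). Its interaction was 3.40 (adjusted p = 3.92e-09).

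Of 11 relatives of the CSF system, 8 were tested in CD45+ cells and 2 were called, where 5.01% of all genes tested were called higher and 6.82% lower. *Kitl*, which encodes the ligand of KIT, stem cell factor, was lower in 66cl4 tumours (207.6 against 3111 normalised counts, log2 fold change −3.90, adjusted p = 0.000767). *Il5ra*, the alpha chain of the IL-5 receptor that shares the common beta chain, was higher (39.0 against 12.97, log2 fold change 1.60, adjusted p = 0.0120). In CD45- cells *Kitl* (2237 against 12560, −2.46), its receptor gene *Kit* (25.4 against 204.8, −2.95) and *Csf2rb2* were called lower, 3 of 5 tested, beside 18.9% of all genes tested. *Kit* is also a mast cell gene, and mast cell markers were lower in both gates of 66cl4 tumours, as given above. Like *Csf1*, *Kitl* was higher in CD45- than in CD45+ cells of both tumours, with log2 fold changes of CD45+ over CD45- cells of −3.45 and −1.999.

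Of 10 transcription factors of myeloid development, *Cebpe* (73.3 against 11.9 normalised counts, log2 fold change 2.62, adjusted p = 0.000734) and *Cebpb* (2824 against 1381, 1.04, adjusted p = 0.00645) were higher and *Gfi1* (26.1 against 54.3, −1.03, adjusted p = 0.0298) was lower in 66cl4 CD45+ cells. CEBPE acts late in granulocyte maturation, CEBPB in emergency granulopoiesis, and GFI1 in the choice of the granulocyte fate. *Spi1*, which encodes PU.1, was higher in CD45+ cells, with log2 fold changes of 7.67 in 66cl4 and 5.50 in 67NR tumours. T cell markers had medians of 7.92 and 6.01 in the same comparisons. Of the transcription factors, 8 of 10 tested were called higher in CD45+ cells of 66cl4 tumours, beside 23.9% of all genes. In 67NR tumours 6 of 9 were, beside 20.2%, and *Klf4* was called lower. The part of PU.1 in the receptor levels was not tested. In CD45- cells 8 of the 10 were tested, *Runx1* was higher (2375 against 1101), and those lower in 66cl4 tumours included *Cebpa*, *Spi1* and *Maf* (−2.55 to −1.62). Over all genes tested, 5.01% were called higher and 6.82% lower in CD45+ cells, and 13.2% and 18.9% in CD45- cells.

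Of 8 genes known to induce or accompany CSF production, 7 were tested in CD45+ cells, where 5.01% of all genes tested were called higher and 6.82% lower. *Il1a* (1084 against 159.2 normalised counts, log2 fold change 2.77, adjusted p = 0.000888) and *Il1b* (69760 against 29270, 1.25, adjusted p = 0.0162), the genes of the inflammatory cytokines IL-1 alpha and beta, were higher in 66cl4 tumours. In CD45- cells *Il6* (21.7 against 477.8, −4.40, adjusted p = 3.47e-09) and *Tnf* (7.30 against 22.3, −1.53, adjusted p = 0.00727) were lower, 2 of 6 tested, beside 18.9% of all genes tested. *Il6* was called higher in CD45+ than in CD45- cells of 66cl4 (3.41) and lower in those of 67NR tumours (−1.02), and the difference of its tumour effect was 4.46 (adjusted p = 4.25e-06).

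Further cell markers in CD45+ cells are given by the first genes of their lists, with mean normalised counts in 66cl4 against 67NR tumours. Of 5 monocyte genes, *Ly6c2* (2268 against 5296) and *Plac8* (5399 against 12760) were called lower, beside 6.82% of all genes tested. The other 3 were not called, among them *Ccr2* (17420 against 18410), and the sums were 26390 to 44340 against 30470 to 50220. Dendritic cell genes included *Zbtb46* (135.3 against 146.3), *Xcr1* (442.9 against 1105, called lower) and *Ccr7* (1773 against 768.4, called higher), with sums of 3152 to 5305 against 3390 to 5221. These 2 lists stand for myeloid cells other than neutrophils. For B cells, *Cd79a* (942.6 against 122.8) was not called, with sums of 146.6 to 15110 against 362.1 to 2903. For eosinophils, which respond to CSF2, *Siglecf* was called higher (60.5 against 24.9), and *Ccr3* was at 148.1 against 332.8 (log2 fold change −1.14, adjusted p = 0.0922, not called). *Epx* was nearly absent (0.749 against 3.12) and *Prg2* was at 1.62 against 13.3, both below the filter. The eosinophil sums were 146.6 to 285.1 against 134.2 to 728.4. Endothelial sums were 709.3 to 1744 against 1011 to 2274, with *Pecam1* at 948.3 against 1096 and *Cdh5* at 112.1 against 115.6, and *Kdr* was called lower (59.4 against 215.5, log2 fold change −1.84, adjusted p = 0.000377). Epithelial sums were 623.1 to 945.8 against 261.2 to 320.0, with *Krt8* called higher (295.8 against 10.4) and *Epcam* at 17.2 against 33.0.

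The genes most like each member in profile were those with the smallest mean absolute difference in centred log2 CPM, counts scaled to library size, over the 20 libraries. For *Csf1* they were *Tmem119* (0.247), *Car5b* and *Tnfrsf10b*, with a median over all 16453 genes of 1.18. For *Il34* they were *Snhg18* (0.330), *Lpin3* and *Neo1*, and for *Csf2* *Usp18* (0.391), *Irf7* and *Zbp1*. The profile of *Csf1r* was closest to those of *Camk1d* (0.265), *Pld4* and *Gatm*, and that of *Csf3r* to those of *Sorl1* (0.250), *Ccrl2* and *Lilr4b*. *Csf2ra* was closest to *Itgam* (0.268), which encodes CD11b, followed by *B430306N03Rik* and *Gm15931*, and *Csf2rb* to *Entpd1* (0.179), followed by *Evi2b* and *St8sia4*.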

How the data were processed

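mRNA of sorted cells was sequenced in 20 libraries. The authors trimmed reads with fastp, estimated transcript counts with Salmon 1.3.0 and summed them to genes with tximport, and the deposited values are these estimated counts per gene, not normalised. The methods name the human reference GRCh38 for this step, whereas the identifiers are those of mouse. The mouse build is not given in the sources used here, so no coordinates are given for the counted genes, and those of the promoter stretches are from RefSeq (GRCm38.p6). Of the identifiers, 51492 had a symbol in the reference annotation, and 1291 had none.

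Estimated counts were rounded (largest change 0.5) and tested by the quasi-likelihood method (edgeR 4.0.16 in R 4.3.3, TMM factors, default filter by group with minimum count 10 and minimum total 15, robust fit), with Benjamini-Hochberg adjustment over all genes tested. Each fit held the groups compared, and the interaction all 20 libraries. Calls required an adjusted p under 0.05 and, except for the interaction, an absolute log2 fold change over 1. Levels are counts divided by size factors of DESeq2 1.42.0. TPM used the longest annotated transcript of each gene. Members below the filter were compared with two-sided exact permutation tests of the mean level and with the summed counts of the groups. Neither the main fits nor the permutation tests used the pairing of libraries by animal. A count of 0 allows up to 3 counts, and no pair of gene copies was corrected for shared reads. Figures were drawn with matplotlib 3.10.9. The tests were tried on simulated data.

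Named genes were the 8 members, *Csf2rb2*, up to 4 called genes with the largest fold change from each of 4 CSF lists per comparison (more where 5 or fewer were called), the first 2 genes of each of 12 marker lists, and the 3 genes nearest to each member in profile (TMM, prior count 2). The members and lists were chosen with earlier results of these data known, and *Socs2*, *Kitl* and *Spi1* between the gates, and marker genes beyond the first 2 of a list, were singled out after their values were seen. Alternatives were RLE factors, the Wald test of DESeq2, no filter, 10 counts in 5 libraries, the replicate block, all 20 libraries in a fit, no fold threshold, and the removal of each library or of 66cl4 animals 5 and 6. Summing the near copies was added later. Some genes that this rule names are not reported here.

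CD45+ and CD45- libraries of 1 animal are paired by the animal named in the titles. After subtracting group means, the 2 libraries of an animal correlated across genes at 0.0251 to 0.148 for 66cl4 and −0.00326 to 0.324 for 67NR animals. Between tumours libraries share only a number.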

Additional observations from a re-analysis of the deposited data

Results flagged for a closer look

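In 5 of 32 groups of 5 libraries, 1 library stood far from the others, where chance gives about 1 group in 20, or 1.6 groups. The CD45- library of 67NR animal 4 had 639.2 normalised counts of *Csf1r*, with 271.9 as the next value, and it was also highest of its group in the macrophage marker sum (3956). The CD45+ library of 67NR animal 7 had 16768 normalised counts of *Csf1r* (next 10999) and 1713 of *Csf2ra* (next 1061), and it had the highest macrophage marker sum of all libraries (105900). The CD45- library of 66cl4 animal 5 had 33.3 normalised counts of *Csf2ra* (next 8.98), beside a macrophage marker sum of 1732 that was the highest of its group. The CD45+ library of 67NR animal 1 had 4923 normalised counts of *Csf3r* (next 3070) and the highest neutrophil marker sum of its group (47450).

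The tumour effect differed between the gates by the interaction test for *Il34* (−1.53 on the log2 scale, CD45+ minus CD45- cells), *Csf2ra* (2.35), *Csf2rb* (3.17) and *Csf3r* (2.88). The difference of *Il34* depended on single libraries and was not called without 66cl4 animals 5 and 6 (adjusted p = 0.212).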

How the results depend on the processing

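Between the tumours, 5 of 7 tested members were called in CD45+ cells, where 5.01% of all genes tested were called higher and 6.82% lower. In CD45- cells 4 of 6 were called, beside 13.2% and 18.9%. Between the gates 6 of 6 were called in 66cl4 tumours (all genes 23.9% and 20.5%) and 7 of 7 in 67NR tumours (20.2% and 19.6%). In the interaction 4 of 7 were called, beside 21.9% and 21.2%. With all 20 libraries in the fit, 7 were called in CD45- cells. The other alternatives kept these counts within 1.5 times. With the replicate number as a replicate block, the counts were 4, 3, 6, 7 and 4. Between tumours a number is shared by different animals, and there the block ended the calls of *Csf2ra* in CD45+ cells (0.98, adjusted p = 0.0238, under the fold threshold) and *Csf3r* in CD45- cells (adjusted p = 0.148). Between the gates, where it marks the animal, the block changed no call but those of the *Il34* and *Csf1r* interactions. DESeq2 called *Csf1r* in CD45- cells (−1.90, adjusted p = 0.0225), as did the fit of all 20 libraries (−1.86), which also called *Csf2ra* there (−1.23). The interaction of *Csf2* ranged from −0.30 to 0.94 on leaving out each library. Over all genes, dropping the fold threshold raised the calls from 1736 to 3259 in CD45+ cells, 4774 to 9999 in CD45- cells, 6621 to 10892 between gates in 66cl4 and 5992 to 10143 in 67NR tumours. Depth limits *Csf3* in all groups and *Csf2* in CD45- cells, which rest on at most 11 counts per library.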
